A study of Homo sapiens with 6 samples.

Results

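The genes described here are the chaperones, folding enzymes, stress sensors and degradation factors of the endoplasmic reticulum (ER), measured in 2 human osteosarcoma cell lines after transfection of a miR-1 vector. They are 37 genes listed by function. Of the 37, 35 had at least 1 probe set that the array's annotation assigns to that gene alone. PDIA5, a disulfide isomerase, and SYVN1, the ubiquitin ligase also called HRD1, are covered only by probe sets that carry a second gene symbol, and no value is given for them. The 35 genes are represented by 92 probe sets, of which 84 reached the level filter described below. All 35 passed that filter through their mean over all arrays, so they are 35 of the 12958 genes tested and 35 of the 19775 genes with a probe set of their own.

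Proteins that enter the secretory pathway are threaded into the ER lumen through the SEC61 channel, bound by the HSP70-type chaperone BiP and its partners, given disulfide bonds by oxidoreductases, and cycled through calnexin and calreticulin while their glycans are trimmed. Chains that fail to fold are handed to the ER-associated degradation (ERAD) machinery, which pulls them back into the cytosol for the proteasome. When unfolded chains build up, membrane sensors start the unfolded protein response: IRE1 splices the XBP1 mRNA, ATF6 is cut free to act as a transcription factor, and PERK slows translation. Bone-forming cells secrete large amounts of collagen-rich matrix and are known to depend on this system.

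KHOS derives from the osteosarcoma line HOS, transformed by a Kirsten sarcoma virus, whereas U-2OS is an osteosarcoma line of separate origin. In each line 1 array was hybridised for cells given the miR-1 expression vector, 1 for cells given the miR-null vector, both 48 h after transfection, and 1 for control cells. RNA from 3 flasks was pooled before hybridisation, so each of the 6 arrays is a single measurement of its group and there is no replicate array within any group. The labels of the control cells name no vector, and no source used here says whether they were exposed to the transfection reagent, so plasmid and reagent cannot be told apart in a comparison with control. The promoter that drives the microRNA in the vector, the share of cells transfected and the miR-1 level reached are likewise not given, and these arrays do not read mature microRNAs. The mature microRNA that the vector is named for, taken from RefSeq, is shown because it defines the treatment, with its seed (bases 2 to 8) in capitals.
hsa-miR-1-3p: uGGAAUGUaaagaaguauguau

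All values are log2 expression values from robust multi-array averaging (RMA), so a difference of 1 is a 2-fold change. A gene was represented by its probe set with the highest mean over the 6 arrays, and it was tested where that mean reached 5.11, the median over all probe sets other than controls. The arrays had similar medians, between 4.98 and 5.15. Their spreads differed: on the miR-1, miR-null and control arrays in turn the interquartile range was 3.36, 3.32 and 3.24 in KHOS, against 2.75, 2.84 and 3.07 in U-2OS. Hybridisation spike-ins averaged 9.93, 10.13 and 9.76 in KHOS, against 11.65, 11.33 and 10.81 in U-2OS in that order, so the narrow U-2OS vector arrays were also those with the brightest spike-ins. Over all probe sets the correlation was 0.978 to 0.996 within a line and 0.910 to 0.938 between the lines. Of 8 osteoblast and mesenchymal marker genes 6 reached the filter, with VIM (vimentin) at 13.2 to 14.3, whereas COL1A2 (a type I collagen chain) and ALPL (alkaline phosphatase) stayed below it. RUNX2 and CDH11, counted among the 6, were below 5.11 on the U-2OS vector arrays, at 4.09 to 4.72. Of 4 epithelial markers only EPCAM reached the filter, at 8.43 to 8.70 in KHOS, against 5.49 to 5.96 in U-2OS. Of 4 endothelial markers 2 reached it, PECAM1 at 5.69 to 6.54 and TIE1 at 4.42 to 6.37 over the 6 arrays. PTPRC, the pan-leukocyte marker CD45, was below the filter, and CD3E, a T-cell receptor subunit, lay near it at 5.07 to 5.36. Fewer cells expressing a gene and less RNA per cell cannot be told apart in these bulk samples.

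Many genes of this system are known to carry an ER stress response element (ERSE) in their promoters, in which the CCAAT box bound by NF-Y stands at a fixed distance from the CCACG box recognised by ATF6. RefSeq promoter windows (GRCh38.p14, 250 bases before to 50 after the start site) were found for 34 of the 37 genes and searched on both strands. ERSE, written as CCAAT, 9 free bases and CCACG, occurred in the windows of 9 of the 34 genes (26.5%), against 27 of 35116 promoters overall (0.0769%). For this and the motifs below, a gene counted once if any of its windows matched, and the 34 genes have 42 windows. The share of all promoters counts single windows and includes those of the 34 genes, so the shares differ in unit. The 9 genes were CALR, CANX, CRELD2, ERO1B, HSP90B1, HSPA5, PDIA6, SERP1 and XBP1. ERSE-II, written as ATTGG, 1 free base and CCACG, occurred in 3 of the 34 (8.82%), namely HERPUD1, HYOU1 and SDF2L1, against 19 of all promoters (0.0541%). The matches of the members discussed most below are shown with the fixed boxes in capitals.
XBP1 ERSE, starting 52 bases before the start site, chr22:28800603-28800621, minus strand: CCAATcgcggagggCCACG
HSPA5 ERSE, 66 bases before, chr9:125241391-125241409, minus strand: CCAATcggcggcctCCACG
HSP90B1 upstream ERSE, 194 bases before, chr12:103930216-103930234, plus strand: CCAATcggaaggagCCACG
HSP90B1 downstream ERSE, 89 bases before, chr12:103930321-103930339, minus strand: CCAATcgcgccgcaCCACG
PDIA6 ERSE, 86 bases before, chr2:10812853-10812871, minus strand: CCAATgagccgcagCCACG
CRELD2 ERSE, 80 bases before, chr22:49918554-49918572, minus strand: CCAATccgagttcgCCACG
HERPUD1 ERSE-II, 117 bases before, chr16:56932025-56932035, plus strand: ATTGGgCCACG
SDF2L1 ERSE-II, 188 bases before, chr22:21642114-21642124, minus strand: ATTGGtCCACG

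The UPRE core bound by the XBP1 protein, TGACGTG, was present in 3 of the 34 windows (8.82%; DNAJC10, HYOU1 and SEC61A1), against 692 of all promoters (1.97%), and in HYOU1 it overlaps an ERSE-II. The core of the amino acid response element read by ATF4 and CHOP, TGATG, 1 free base and AA, was present in 2 (5.88%; CREB3L2 and HERPUD1), against 1270 of all promoters (3.62%). A match describes the letters of the window and does not show that a factor binds there. The windows of 3 genes are printed whole, as the genes differ below in how the lines compare: XBP1 (chr22:28800520-28800819, minus strand), HSPA5 (chr9:125241294-125241593, minus strand) and HERPUD1 (chr16:56931892-56932191, plus strand), with the ERSE or ERSE-II in capitals.
XBP1 promoter: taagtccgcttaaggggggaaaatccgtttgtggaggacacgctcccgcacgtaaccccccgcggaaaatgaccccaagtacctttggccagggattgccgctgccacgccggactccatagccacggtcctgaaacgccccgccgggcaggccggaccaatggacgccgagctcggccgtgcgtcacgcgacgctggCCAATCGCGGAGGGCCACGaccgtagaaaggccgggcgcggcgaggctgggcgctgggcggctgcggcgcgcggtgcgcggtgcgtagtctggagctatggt
HSPA5 promoter: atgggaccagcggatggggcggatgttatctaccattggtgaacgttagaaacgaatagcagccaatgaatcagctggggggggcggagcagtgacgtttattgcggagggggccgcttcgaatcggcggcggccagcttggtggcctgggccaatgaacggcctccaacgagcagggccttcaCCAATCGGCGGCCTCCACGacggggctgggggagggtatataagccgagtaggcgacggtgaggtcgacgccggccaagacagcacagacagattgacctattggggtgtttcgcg
HERPUD1 promoter: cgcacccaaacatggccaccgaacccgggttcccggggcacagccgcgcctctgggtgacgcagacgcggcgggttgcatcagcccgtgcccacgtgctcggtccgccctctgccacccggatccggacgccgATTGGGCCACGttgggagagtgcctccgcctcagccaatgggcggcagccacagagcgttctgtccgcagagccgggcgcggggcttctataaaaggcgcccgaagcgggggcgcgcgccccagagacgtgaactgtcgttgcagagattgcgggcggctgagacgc

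The first comparison asked how these genes differed between cells given a vector, with or without miR-1, and control cells. XBP1, ERN1 (IRE1 itself) and DNAJB9, a partner of BiP, had the largest average rises of the 35 on the KHOS vector arrays, 0.92 to 1.06 over the KHOS control. For ERN1 this mean joined 1.65 with miR-1 and 0.34 with miR-null, and its other probe sets gave 1.66 and -0.07. At 1.2-fold on both KHOS vector arrays 5 of the 35 genes were higher (14.3%), against 15.8% of all genes. HERPUD1 stood 0.31 to 0.45 higher in both lines. Most of the other chaperones and folding enzymes differed little from control in KHOS and, on the deposited scale, were lower than control in U-2OS. Across both lines none of the 35 genes passed limma's test at an adjusted p of 0.05, against 0.478% of all genes tested (46 genes or 0.355% higher, 16 genes or 0.123% lower). At an unadjusted p of 0.05 the limma fit had 3 of the 35, namely UGGT1, HERPUD1 and DNAJB9, against 20.0% of all genes, a larger share, and the Mann-Whitney test named in the study's design text gave none, its smallest possible p with 4 vector and 2 control arrays being 0.133 (exact, two-sided). Leaving out a control array leaves this contrast to the other line, with 1 control array. Without the KHOS control the change was -0.89 for UGGT1 and -1.13 for CREB3L2. Without the U-2OS control it was 0.92 for DNAJB9 and 1.06 for XBP1. The median fitted change was -0.03 for the 35 genes and -0.03 for all genes tested.

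Within a line the genes can be described by size only. By the 1.2-fold rule of the design text, asked of both vector arrays against the line's control, 5 of the 35 were higher in KHOS (14.3%, against 15.8% of all genes) and 1 was lower (against 10.6%). In U-2OS 3 were higher (against 12.9%) and 11 were lower (31.4%, against 28.0%). All of these shares are close to or below the background of their line. The median change of the 35 genes was 0.13 in KHOS, against -0.01 for all genes, with 27 above 0 (77.1%, against 48.5%), and -0.16 in U-2OS, against -0.10 for all genes, with 9 above 0 (25.7%, against 40.9%). The U-2OS direction depended on the scaling: after quantile normalization of the arrays the U-2OS median was 0.04 with 18 genes above 0 and 17 below, and that of all genes was 0.04, whereas the KHOS median was 0.10 with 26 above 0. The U-2OS vector arrays are those with the narrower spread given above. Among genes as bright as most of these, at or over the 75th percentile of level, the deposited values gave medians of 0.00 in KHOS, against -0.20 in U-2OS.

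**Figure D1:**
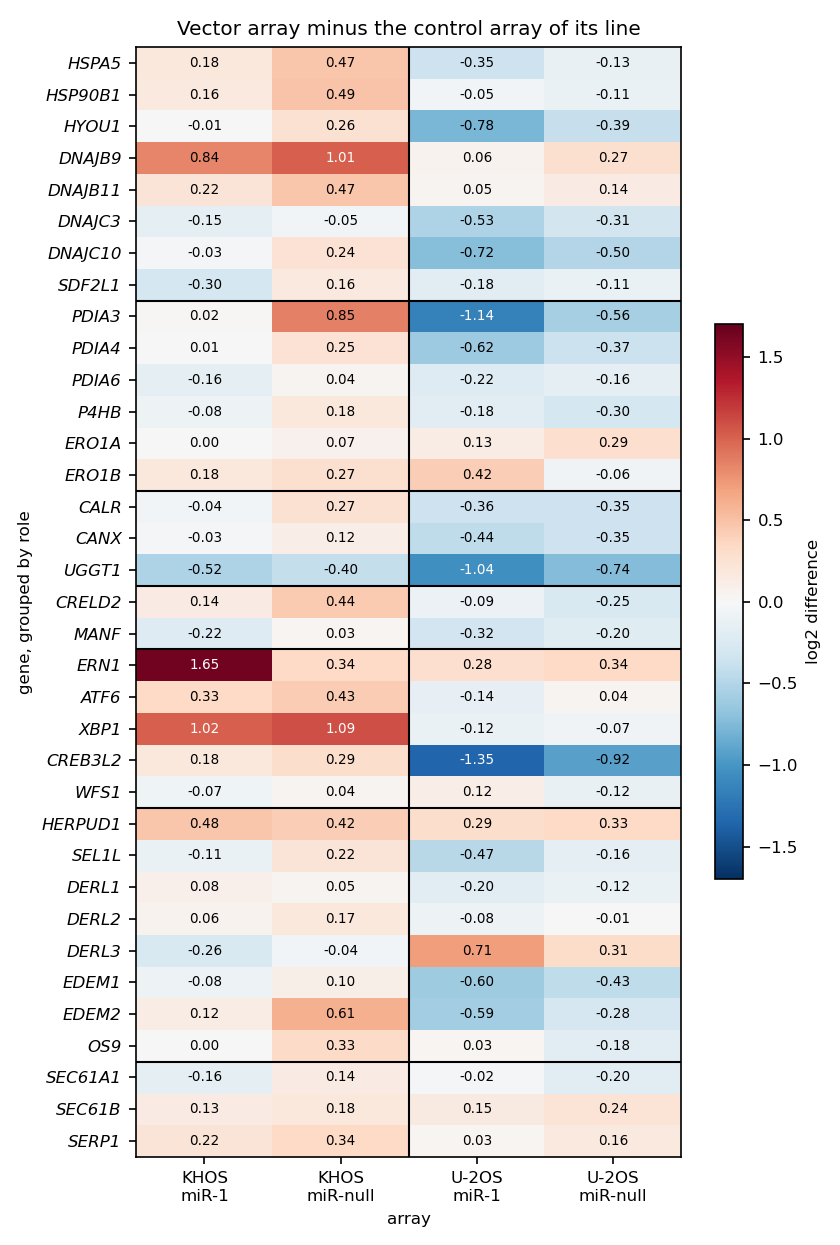
Heat map of the log2 difference of each vector array from the control array of its line for the 35 genes (rows, grouped by role; columns, arrays), with the value printed in each cell and red for higher than control. The XBP1 row reads 1.02 and 1.09 in KHOS, against -0.12 and -0.07 in U-2OS, and the U-2OS columns are mostly blue on this deposited scale, with a median of 0.04 after quantile normalization.

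Among the chaperones, HSPA5 (BiP, the master HSP70 of the lumen) read 13.16, 13.45 and 12.98 on the KHOS miR-1, miR-null and control arrays and 12.21, 12.43 and 12.56 on the U-2OS arrays in the same order. HSP90B1 (GRP94, the HSP90 of the lumen) read 11.61, 11.94 and 11.45 in KHOS, against 10.58, 10.51 and 10.62 in U-2OS. Both were therefore above control on both KHOS vector arrays and below it on both U-2OS vector arrays on the deposited scale, by at most 0.49 in either direction. The other HSP90B1 probe set over the filter did not follow this pattern: it was -0.20 and 0.07 from control in KHOS, against 0.40 and 0.33 in U-2OS with miR-1 and miR-null. The other HSPA5 set was -0.09 and 0.16 from control in KHOS, against -0.28 and -0.69 in U-2OS. HYOU1 (GRP170, a nucleotide exchange factor for BiP) read 9.59, 9.87 and 9.60 in KHOS, against 7.60, 8.0 and 8.39 in U-2OS. Its KHOS vector arrays lay -0.01 and 0.26 from control, while both U-2OS vector arrays were lower than control, at -0.78 with miR-1 and -0.39 with miR-null. Over the 8 genes of this chaperone system the median change was 0.22 in KHOS, against -0.20 in U-2OS, and -0.06 in U-2OS after quantile normalization.

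The J-domain partners of BiP did not move as a block. DNAJB9 (ERdj4, which directs BiP to misfolded clients) read 9.49, 9.66 and 8.65 on the KHOS miR-1, miR-null and control arrays and 8.55, 8.77 and 8.49 on the U-2OS arrays. The KHOS vector arrays were 0.84 and 1.01 above the KHOS control with miR-1 and miR-null, and the U-2OS vector arrays were 0.06 and 0.27 above theirs. The fitted change over both lines was 0.55 ± 0.19 (SE; limma, adjusted p = 0.187). DNAJB11 (ERdj3, a co-chaperone for nascent chains) was above control on all 4 vector arrays, by 0.22 and 0.47 in KHOS, against 0.05 and 0.14 in U-2OS with miR-1 and miR-null. DNAJC3 (p58IPK, a co-chaperone that also restrains PERK) was below control on all 4, at -0.15 and -0.05 in KHOS, against -0.53 and -0.31 in U-2OS. DNAJC10 (ERdj5, a disulfide reductase that helps unfold ERAD clients) read 10.21, 10.47 and 10.23 in KHOS, against 9.43, 9.65 and 10.15 in U-2OS. With miR-1 and miR-null it was -0.03 and 0.24 from control in KHOS, against -0.72 and -0.50 in U-2OS. SDF2L1, which joins the BiP and ERdj3 complex, lay between -0.30 and 0.16 of control on all vector arrays.

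Of the disulfide isomerases and oxidases, PDIA3 (ERp57, the isomerase that works with calnexin and calreticulin) varied most. It read 10.86, 11.70 and 10.85 on the KHOS miR-1, miR-null and control arrays and 9.44, 10.03 and 10.59 on the U-2OS arrays. In KHOS the miR-null array alone was high, and in U-2OS the control array was highest and the miR-1 array lowest. PDIA4 (ERp72) read 10.19, 10.43 and 10.18 in KHOS, against 8.98, 9.24 and 9.61 in U-2OS. PDIA6 and P4HB (PDI, the founding isomerase) lay between -0.30 and 0.18 of control on every vector array, on the sets used. On the U-2OS vector arrays the other PDIA6 sets were at -0.60 to -0.19 from control and the other P4HB sets at -0.45 to -0.41. ERO1A, the oxidase that recharges PDI, differed from control by 0.00 to 0.29 on the 4 vector arrays, on the set used. An ERO1A set averaging 9.61 was below control on all 4, at -0.42 and -0.27 in KHOS, against -0.37 and -0.45 in U-2OS. A further ERO1A set lay between -0.07 and 0.16 of control. ERO1B, its paralogue with a narrower tissue range, read 5.26, 4.78 and 4.84 in U-2OS on the set used, with the miR-null and control arrays below the filter. The other ERO1B set, averaging 5.21, was 1.46 above control on both U-2OS vector arrays. In KHOS that set was 0.59 and 0.73 above control with miR-1 and miR-null. Its KHOS arrays and its U-2OS control array read below the filter.

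In the calnexin cycle, UGGT1, the glucosyltransferase that marks misfolded glycoproteins for another round of folding, had the most negative change in the fit over both lines. It read 9.31, 9.43 and 9.84 on the KHOS miR-1, miR-null and control arrays and 8.43, 8.73 and 9.47 on the U-2OS arrays. All 4 vector arrays were below their control, and it was the one gene of the 35 to pass the 1.2-fold rule downward in both lines, against 6.20% of all genes. The fitted change was -0.68 ± 0.16 (SE) and did not pass the test (limma, adjusted p = 0.0873). CALR (calreticulin) read 10.25, 10.55 and 10.29 in KHOS, against 9.37, 9.38 and 9.73 in U-2OS. CANX (calnexin) read 12.84, 12.98 and 12.86 in KHOS, against 11.56, 11.65 and 12.00 in U-2OS. On the U-2OS vector arrays both lectins were -0.44 to -0.35 from control, and on the KHOS vector arrays -0.04 to 0.27.

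CRELD2 and MANF encode small luminal proteins that are induced by ER stress and partly secreted. CRELD2 read 9.89, 10.18 and 9.74 on the KHOS miR-1, miR-null and control arrays and 10.06, 9.90 and 10.16 on the U-2OS arrays. MANF read 11.38, 11.63 and 11.60 in KHOS, against 10.90, 11.02 and 11.22 in U-2OS. Neither had a vector array more than 0.44 from its control.

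The stress sensors and transcription factors held the largest single changes. XBP1, the factor whose mRNA IRE1 splices, read 9.90, 9.97 and 8.88 on the KHOS miR-1, miR-null and control arrays and 9.62, 9.67 and 9.73 on the U-2OS arrays. Both KHOS vector arrays were about 1 log2 unit above the KHOS control and the U-2OS vector arrays lay -0.12 and -0.07 from theirs. ERN1 (IRE1, the sensor kinase and nuclease) read 7.98, 6.67 and 6.34 in KHOS, against 8.17, 8.23 and 7.89 in U-2OS. Its KHOS miR-1 array was far above the other KHOS arrays, and the fitted change over both lines was 0.65 ± 0.34 (SE; limma, adjusted p = 0.33). ATF6 read 8.86, 8.96 and 8.53 in KHOS, against 8.94, 9.12 and 9.08 in U-2OS. It passed the 1.2-fold rule in KHOS, and the line difference of 0.43 did not pass the test (limma, adjusted p = 0.332). CREB3L2 (BBF2H7, a membrane-bound factor that promotes secretion in mouse cartilage) read 9.58, 9.70 and 9.40 in KHOS, against 6.81, 7.24 and 8.16 in U-2OS, with both U-2OS vector arrays nearly 1 unit or more below control. WFS1 (wolframin, an ER membrane protein) stayed within 0.12 of control throughout on the set used, and its other set lay between -0.32 and 0.27 of control.

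Among the ERAD genes, HERPUD1 (HERP, which gathers the HRD1 ligase complex) was the one whose change from control was most alike in the lines among those past the 1.2-fold rule. It read 11.48, 11.41 and 11.00 on the KHOS miR-1, miR-null and control arrays and 11.26, 11.30 and 10.96 on the U-2OS arrays. With ERN1 it was 1 of 2 genes that passed the 1.2-fold rule upward on all 4 vector arrays, against 3.21% of all genes. Its fitted change was 0.38 ± 0.12 (SE; limma, adjusted p = 0.159). DERL3, a derlin of the retrotranslocation channel found mainly in secretory cells, lay near the filter and read 5.79, 6.0 and 6.05 in KHOS, against 6.37, 5.96 and 5.65 in U-2OS, so it moved against the other genes. DERL1 and DERL2, the broadly expressed derlins, were between -0.20 and 0.17 of control on every vector array, on the sets used. The other DERL2 set, averaging 7.58, was below control on all 4. It was at -0.59 and -0.69 in KHOS, against -0.43 and -0.22 in U-2OS, with miR-1 and miR-null. The other DERL1 sets lay between -0.38 and 0.68 of control. EDEM1 and EDEM2, which trim mannose from clients bound for degradation, were lower than control on both U-2OS vector arrays, at -0.60 and -0.43 for EDEM1 and at -0.59 and -0.28 for EDEM2 with miR-1 and miR-null. SEL1L, the adaptor of the HRD1 ligase, was -0.47 and -0.16 from control on the same arrays, and OS9, a lectin that delivers clients to it, was 0.03 and -0.18 from control. Of the translocation genes, SEC61A1 (the channel itself), SEC61B (a small channel subunit) and SERP1 (RAMP4, which stabilises new membrane proteins) lay between -0.20 and 0.34 of control on all vector arrays, on the sets used. Other SERP1 sets, averaging 10.46 and 11.01, were below control in U-2OS with miR-1 and miR-null, at -0.71 and -0.36 and at -0.44 and -0.24. A further SERP1 set near the filter was at 0.02 and 0.22 there.

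Grouped by promoter, the 12 genes with ERSE or ERSE-II had a median vector change of 0.25 in KHOS, with 10 above 0, and of -0.16 in U-2OS, with 3 above 0. The 20 genes with a promoter window and neither element had medians of 0.11 in KHOS, with 15 above 0, and of -0.17 in U-2OS, with 5 above 0. Of all genes tested, 48.5% were above 0 in KHOS and 40.9% in U-2OS. The highest change among the 12 was that of XBP1 in KHOS at 1.06, while ERN1 and DNAJB9, whose windows carry neither element, had 0.99 and 0.92. No test was made of this grouping.

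The difference between the lines in the vector change was tested directly. XBP1 was the one gene of the 35 that passed, at 1.15 ± 0.23 (SE; limma, adjusted p = 0.0472), against 2.28% of all genes tested. The vector change of XBP1 was 1.06 in KHOS, against -0.09 in U-2OS. The other XBP1 set, averaging 4.29, was below the filter but enters the median over probe sets. The call was near the threshold: it was lost after quantile normalization, at 0.95 with an adjusted p of 0.122 in limma, with the median over its probe sets, at 0.48 with an adjusted p of 0.277, with no level filter, with an adjusted p of 0.0529, and without the KHOS miR-1 array, at 1.18 with an adjusted p of 0.215, or without the KHOS miR-null array, at 1.11 with an adjusted p of 0.209. CREB3L2 had the largest estimate, 1.37 (limma, adjusted p = 0.0558), with 0.24 in KHOS, against -1.13 in U-2OS. PDIA3 followed with 1.28 (limma, adjusted p = 0.173), with 0.43 in KHOS, against -0.85 in U-2OS. In the limma fit 8 of the 35 genes had an unadjusted p under 0.05, against 22.3% of all genes, which is about the same share. The difference was above 0 for 31 of the 35 genes (88.6%), against 62.3% of all genes, with a median of 0.37 for the 35 and 0.14 for all. Quantile normalization moved these medians to 0.13 and -0.05, and genes at or over the 75th percentile of level had a median of 0.24 as deposited. On the deposited scale 10 genes had both vector arrays above control in KHOS and both below it in U-2OS (28.6%, against 16.8% of all genes), and 6 were above control on all 4 vector arrays (17.1%, against 14.2%). By the 1.2-fold rule none of the 35 was higher in KHOS and lower in U-2OS (against 2.61% of all genes), and none the reverse (against 0.525%).

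**Figure D2:**
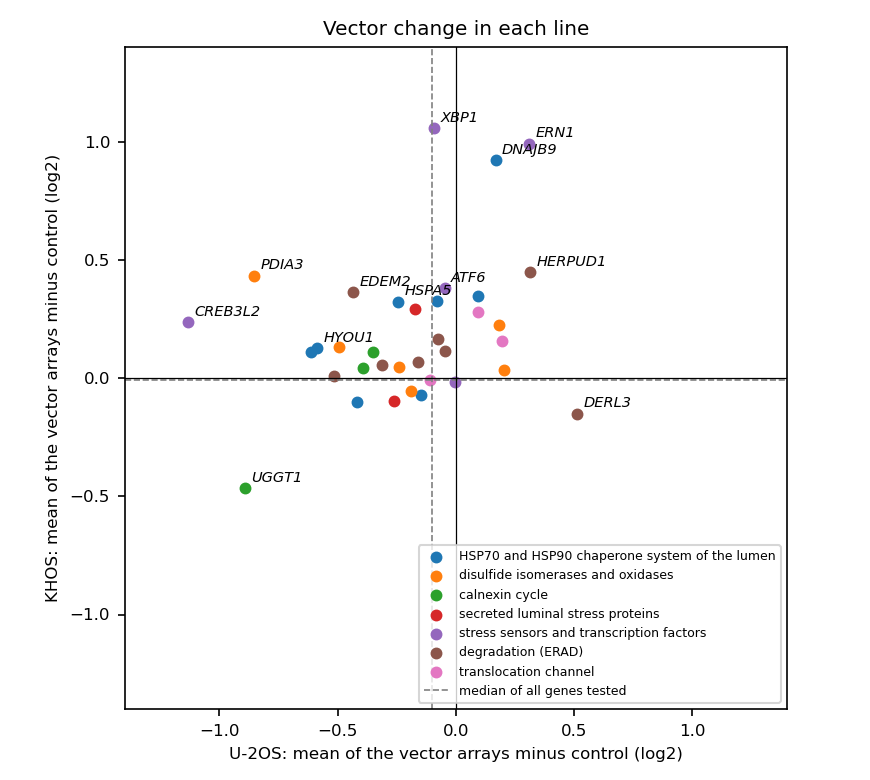
Scatter plot of the mean vector change of the 35 genes in KHOS (y axis, log2) against that in U-2OS (x axis, log2), coloured by role, with dashed lines at the median of all genes tested. XBP1 lies at 1.06 in KHOS, against -0.09 in U-2OS, CREB3L2 at 0.24 and -1.13, and HERPUD1 at 0.45 and 0.31.

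The second comparison set the miR-1 vector against the miR-null vector. In KHOS 32 of the 35 genes were lower with miR-1 than with miR-null (91.4%, against 60.1% of all genes), with a median of -0.20, against -0.05 for all genes. In U-2OS 27 of the 35 were lower (77.1%, against 58.7%), with a median of -0.09, against -0.05. In the fit over both lines none of the 35 passed the test, and 0% of all genes tested passed. None of the 35 had an unadjusted p under 0.05 in limma, against 0.602% of all genes. Each value within a line is a difference between single arrays, and no gene's fitted difference had a 95% interval that left out 0. The median over the 35 genes was -0.13, against -0.04 for all genes.

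In KHOS the lower values with miR-1 stood beside a high miR-null array. The KHOS miR-null array was the highest of its line for 29 of the 35 genes (82.9%), against 33.0% of all genes, and the lowest for none (against 19.9%). The median difference of miR-null from control in KHOS was 0.25, with 32 of the 35 above 0 (91.4%, against 53.0%), whereas that of miR-1 from control was 0.01, with 19 above 0 (54.3%, against 45.0%). In U-2OS the control array was the highest for 23 of the 35 (65.7%, against 51.2%), and the miR-1 array was the lowest for 20 (57.1%, against 44.0%). Quantile normalization left 32 of 35 below 0 in KHOS, at a median of -0.16, and 23 of 35 in U-2OS, at a median of -0.04.

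By the 1.2-fold rule 13 genes were lower with miR-1 than with miR-null in KHOS (37.1%, against 11.8% of all genes) and 6 were lower in U-2OS (against 19.2%). In both lines it was met by HYOU1, PDIA3, SEL1L and EDEM2, 4 of the 35 (11.4%, against 2.20%), and by no gene upward (against 0.903%). PDIA3 had the most negative differences, -0.83 in KHOS, against -0.59 in U-2OS, and a fitted difference of -0.71 ± 0.34 (SE; limma, unadjusted p = 0.0796). EDEM2 read 6.99 with miR-1 and 7.47 with miR-null in KHOS, against 5.37 and 5.68 in U-2OS, differences of -0.49 and -0.31. SEL1L read 9.90 with miR-1 and 10.23 with miR-null in KHOS, against 9.71 and 10.02 in U-2OS, and its fitted difference was -0.32 ± 0.19 (SE). ERN1 went the other way in KHOS, where it was 1.31 higher with miR-1 and alone passed the rule upward (against 7.39% of all genes), while U-2OS differed by -0.06. In U-2OS 2 genes, ERO1B and DERL3, passed the rule upward (against 11.8%). All 8 genes of the HSP70 and HSP90 system were lower with miR-1 in the fit, with a median of -0.22, and all 3 of the calnexin cycle, with a median of -0.16, but no gene of either group passed the test.

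**Figure D3:**
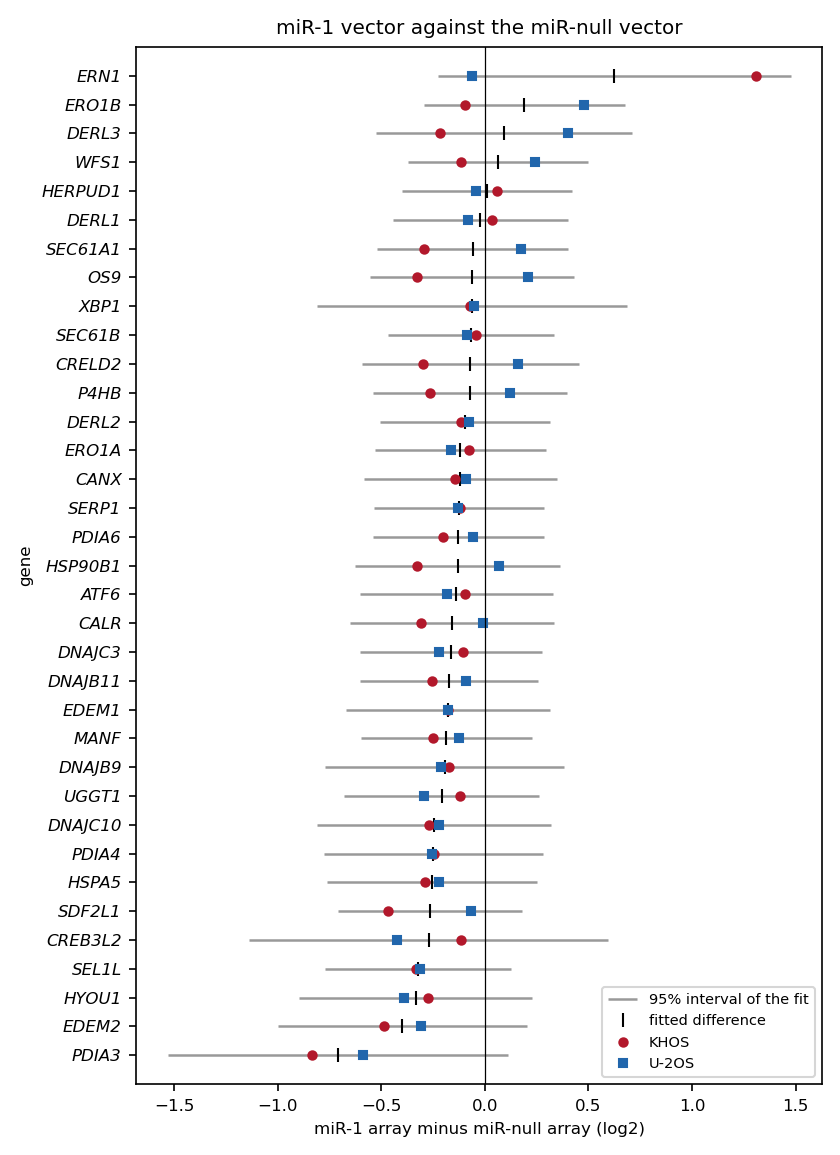
Difference of the miR-1 array from the miR-null array (x axis, log2) for each gene (y axis, ordered by the fitted difference), with circles for KHOS, squares for U-2OS, ticks for the limma fit over both lines and grey lines for its 95% interval. Every interval crosses 0; PDIA3 lies lowest at -0.71 and ERN1 highest at 0.62.

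The third comparison was between the lines, over all 3 treatments. Averaged over the treatments, KHOS had more mRNA than U-2OS for most of the folding machinery, including HSPA5, HSP90B1, HYOU1 and all 3 genes of the calnexin cycle, and less for DERL1 and SDF2L1. In control cells alone the genes named as higher differed by 0.37 (UGGT1) to 1.22 (HYOU1). The median gap of the 35 genes there was 0.18, with 22 above 0 and 13 below. Of the 35 genes 18 were higher and 4 lower in KHOS by limma's test at an adjusted p of 0.05, against 54.8% of all genes tested, of which 30.3% were higher and 24.5% lower. The median difference was 0.43 for the 35, 0.00 for all genes tested and 0.21 for genes at or over the 75th percentile of level. Quantile normalization shifted the median of all genes to -0.17 and that of the 35 to 0.12. The lowest KHOS array was above the highest U-2OS array for 17 of the 35 (48.6%, against 32.7%), and the reverse held for 4 (11.4%, against 32.2%). Without either miR-null array 10 of the 18 remained called as higher, and quantile normalization lost the calls of DNAJB9, DNAJC10, MANF, UGGT1 and WFS1 and gained those of ATF6 and SEC61B as lower in KHOS. For ERO1A and DNAJC10 the direction depends on the probe set, as given below.

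DNAJC3 differed most, with 10.30, 10.40 and 10.45 in KHOS, against 7.67, 7.89 and 8.20 in U-2OS, a difference of 2.46 ± 0.15 (SE; limma, adjusted p = 6.1e-05). CREB3L2 differed by 2.16 ± 0.29 (SE; limma, adjusted p = 0.00147). ERO1B differed by 1.76, HYOU1 by 1.69 and EDEM2 by 1.44. For these 5 genes, on the sets used, no KHOS array overlapped a U-2OS array. The values of CREB3L2 and ERO1B rested on 1 probe set each: with the median over probe sets CREB3L2 differed by 0.35 (limma, adjusted p = 0.173) and ERO1B by 0.39 (limma, adjusted p = 0.0761), and neither passed. HSPA5 averaged 13.20 ± 0.24 in KHOS, against 12.40 ± 0.18 in U-2OS (SD over 3 arrays each), a difference of 0.80 (limma, adjusted p = 0.00905). Without the miR-null array of either line this was 0.69 (limma, adjusted p = 0.0713). HSP90B1 averaged 11.67 ± 0.25 in KHOS, against 10.57 ± 0.06 in U-2OS (SD over 3 arrays each), a difference of 1.10. CANX, PDIA3, PDIA4, DERL2 and CALR were higher in KHOS by 0.87 to 1.16. DNAJB11, DNAJB9, UGGT1, MANF and WFS1 were higher by 0.43 to 0.71, and with the median over probe sets UGGT1 and WFS1 did not pass. DNAJC10 was higher by 0.56 on the set used, but its 4 sets over the filter gave 2 positive and 2 negative differences. With the median over its sets it passed in the other direction, at -0.76 (limma, adjusted p = 0.0085), so it has no settled direction.

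In the other direction ERO1A read 10.63, 10.70 and 10.63 in KHOS, against 11.79, 11.95 and 11.66 in U-2OS on the miR-1, miR-null and control arrays, a difference of -1.14 ± 0.14 (SE; limma, adjusted p = 0.000954). This direction belongs to the set used: ERO1A passed as higher in KHOS, at 0.86, with the median over its 3 sets (limma, adjusted p = 0.00253) and without x_at and s_at sets (limma, adjusted p = 0.00335). ERN1 differed by -1.10, DERL1 by -0.74 and SDF2L1 by -0.62, and with the median over its sets ERN1 was at 0.19 and did not pass. ERN1 overlapped between the lines, since its KHOS miR-1 array, at 7.98, was above the U-2OS control array at 7.89. The remaining 13 genes did not pass, among them the sensors ATF6 and XBP1 and all 3 translocation genes. ATF6 passed as lower in KHOS after quantile normalization, at -0.59 (limma, adjusted p = 0.0105), and as higher with the median over its probe sets, at 1.76 (limma, adjusted p = 0.000548). SEC61B passed as lower after quantile normalization, at -0.43 (limma, adjusted p = 0.0305), and with a trended prior variance (limma, adjusted p = 0.0119). XBP1 was lower in KHOS than in U-2OS among control cells, at -0.86, and higher with miR-1, at 0.28, and with miR-null, at 0.30. The median gap between the lines over the 35 genes was 0.41 with miR-1, 0.61 with miR-null and 0.18 in control cells, which is the line difference in the vector change seen from the levels. After quantile normalization these medians were 0.08 with miR-1, 0.28 with miR-null and 0.04 in control cells.

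**Figure D4:**
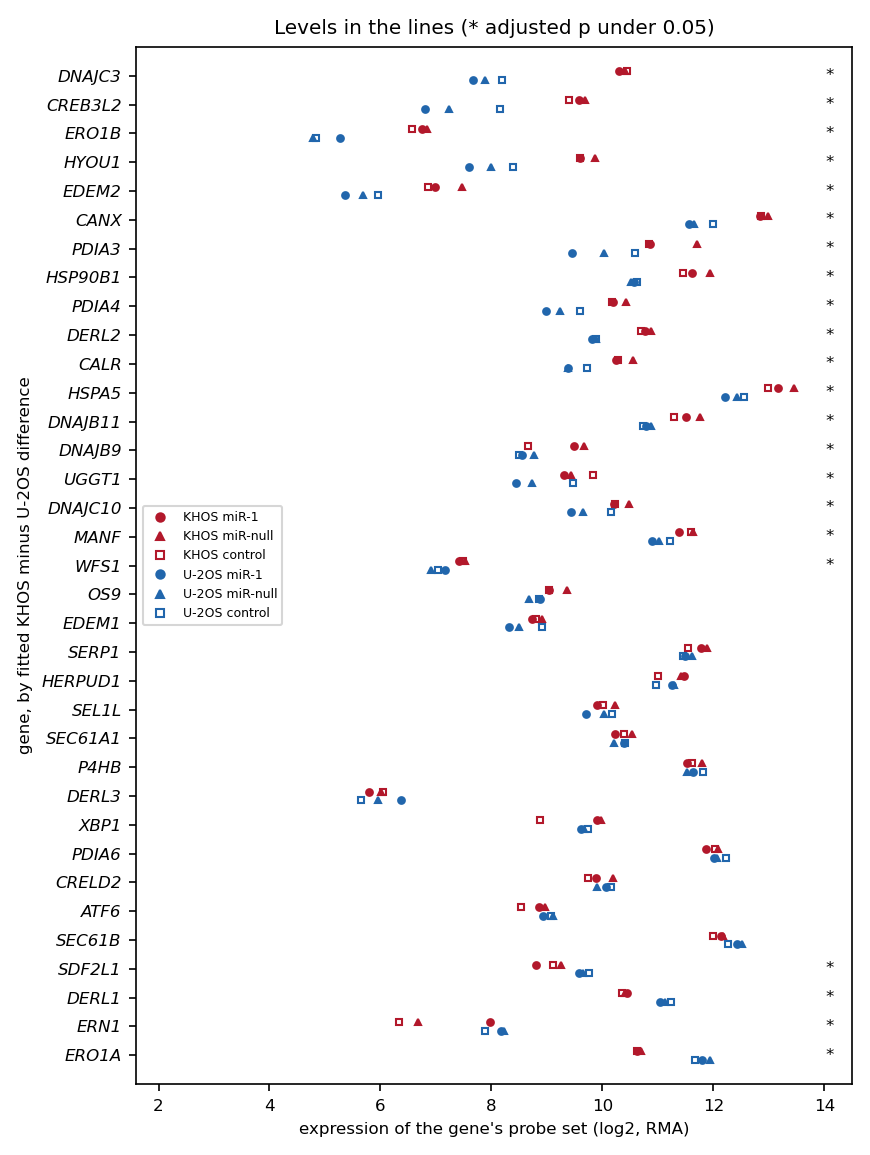
Expression of the 35 genes on the 6 arrays (x axis, log2 RMA value; y axis, genes ordered by the fitted KHOS minus U-2OS difference), in red for KHOS and blue for U-2OS, with filled circles for miR-1, filled triangles for miR-null and open squares for control. DNAJC3 at the top is separated by 2.46, ERO1A at the bottom by -1.14, and asterisks mark the 22 genes with a limma adjusted p under 0.05.

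Because 28 of the 35 genes have more than 1 probe set, the values above were compared with those of the other sets. Among 25 genes with more than 1 set over the filter, all sets had the same sign in 13 for the KHOS vector change, in 13 for the U-2OS vector change, in 17 for miR-1 against miR-null, in 13 for the line difference in the vector change and in 16 for KHOS against U-2OS. PDIA3 was alike on all 3 of its sets, with fitted miR-1 against miR-null differences of -0.71, -0.79 and -0.49. DNAJB9 was alike in KHOS, where its 3 sets gave vector changes of 0.48, 0.92 and 1.16. XBP1 rests on 1 set, as its other set averaged 4.29, below the filter, and HERPUD1 likewise, with its other set at 4.98. ERN1 was not alike: its 3 sets gave KHOS vector changes of 0.99, 1.66 and -0.07, and KHOS against U-2OS differences of -1.10, 0.91 and -0.13. The second ERN1 set was as high on the miR-null array as on the miR-1 array to within 0.27, so the 1.31 difference between those arrays was seen on 1 set. ERO1A gave differences between the lines of -1.14 on the set used and 0.97 and 0.86 on its others, and ERO1B gave 1.76 on the set used and -0.99 on its other. The second CREB3L2 set gave a line difference in the vector change of -0.03, against 1.37 on the set used. UGGT1 was lower than control in U-2OS on all 5 sets, at -0.05 to -0.89, and in KHOS on 3 of the 5.

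**Figure D5:**
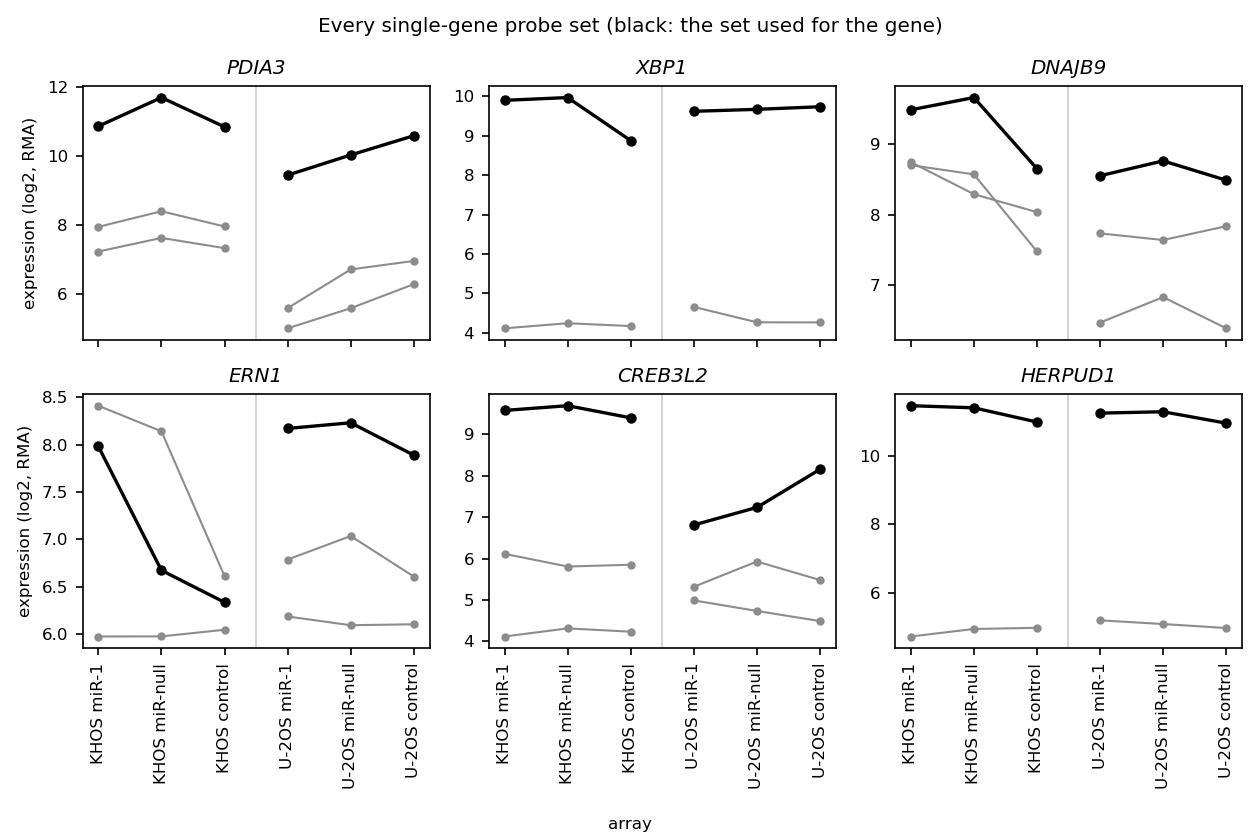
Expression (y axis, log2 RMA value) on each array (x axis, KHOS then U-2OS, each as miR-1, miR-null and control) for every single-gene probe set of PDIA3, XBP1, DNAJB9, ERN1, CREB3L2 and HERPUD1, with the set used for the gene in black and others in grey. The 3 PDIA3 sets all fall below miR-null on the miR-1 arrays, while the ERN1 sets diverge in KHOS.

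Other genes of the same pathways, listed by function, were read in the same fits. Of 19 other folding enzymes tested none passed for the vector, with a median of -0.09 and 2 at an unadjusted limma p under 0.05, and neither did any of 19 other glycan-processing and ERAD genes (median 0.00, 2 unadjusted), 15 other translocation genes (median -0.18, 1 unadjusted) or 8 other sensors and membrane-bound factors (median -0.06, 0 unadjusted). All of these unadjusted counts lie below the 20.0% of all genes. Of 7 genes listed for the PERK branch, 4 passed as higher with a vector (DDIT3, PPP1R15A, SESN2 and TRIB3), against 0.355% of all genes tested. The median of the 7 was 1.24. These calls are given for the main fit only. PERK activity was not measured, and the cause of the rise was not tested. DDIT3, which encodes the transcription factor CHOP, changed by 1.96 ± 0.14 (SE; limma, adjusted p = 0.0133). By line, the 35 chaperone and ERAD genes had medians of 0.13 in KHOS cells and -0.16 in U-2OS cells. The 7 genes listed for the PERK branch had 1.46 in KHOS cells and 1.01 in U-2OS cells. These values come from the same arrays and are set side by side as a description. Between the lines, 7 of the 19 other folding enzymes were higher and 2 lower in KHOS, 6 and 3 of the 19 glycan and ERAD genes, and 7 and 2 of the 15 translocation genes. Of all genes tested, 30.3% were higher and 24.5% lower in KHOS.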

How the data were processed

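Total RNA from KHOS and U-2OS cells was hybridised to Affymetrix U133 Plus 2.0 arrays, with 1 array for each line and treatment. The authors deposited log2 values of 54675 probe sets, made by RMA in the Qlucore software per the labels' design text, with no missing values and a range of 2.83 to 14.9. Array intensities carry no read depth, and the precision is limited by the number of arrays. The genes and lists described were chosen with earlier results of these data known.

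Probe sets were named through the platform annotation: 41091 carried 1 symbol, 1801 several, 11721 none and 62 were controls, and 41037 matched RefSeq by Entrez identifier. Each gene took its probe set with the highest mean over the 6 arrays, and 12958 genes with a mean at or above the median probe set were tested. The functions lmFit and eBayes of limma (version 3.58.1, under R version 4.3.3) fitted linear models with the cell line as a block, and p-values were adjusted by Benjamini-Hochberg over all genes tested. The mean of the vector arrays was set against control, miR-1 against miR-null and KHOS against U-2OS, and the vector change was compared between the lines with an interaction term. The line pairs the arrays by design, since arrays of 1 line correlated at 0.978 to 0.996 and arrays of different lines at 0.910 to 0.938. As nothing says that the groups came from repeated experiments, p-values measure only the spread between these arrays. Steps were tested on simulated data, where the median estimates matched the sizes put in, although most simulated line differences in the vector change missed the threshold.

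Genes were named where they passed a test or the 1.2-fold rule, had the largest positive or negative differences in a comparison, or had opposite signs in the lines, and the others are given by range. Alternatives were quantile normalization, other level filters, the median over a gene's probe sets, every probe set tested, the exclusion of x_at and s_at probe sets, a prior variance with trend, no block, a 1.5-fold rule and leaving out each array. Sequences came from RefSeq GRCh38.p14 tables.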

Additional observations from a re-analysis of the deposited data

Results flagged for a closer look

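XBP1 differed between the lines by the interaction test, with a vector change 1.15 higher in KHOS than in U-2OS (limma, adjusted p = 0.0472). The vector change of 10 other genes had one sign on both KHOS vector arrays and the opposite sign on both U-2OS vector arrays. The difference, KHOS minus U-2OS, was 1.37 for CREB3L2, 1.28 for PDIA3, 0.80 for EDEM2, 0.63 for PDIA4, 0.57 for HSPA5, 0.47 for CRELD2, 0.40 for HSP90B1, 0.22 for DERL1, 0.16 for DERL2 and -0.66 for DERL3. None of these 10 passed the interaction test, with limma adjusted p-values from 0.0558 for CREB3L2 to 0.716 for DERL2. DERL3 was below control in KHOS and above it in U-2OS, and the other 9 were above control in KHOS and below it in U-2OS. Some of these changes were near 0, such as 0.01 for PDIA4 and 0.02 for PDIA3 on the KHOS miR-1 array and -0.01 for DERL2 on the U-2OS miR-null array. The other PDIA4 set was below control in KHOS, at -0.17 and -0.04. These signs are of the deposited scale. After quantile normalization the U-2OS vector change was above 0 for 18 of the 35 genes and below 0 for 17. CREB3L2, DERL1, DERL2 and HSP90B1 each have another probe set over the filter whose difference has the opposite sign or is near 0, -0.03 for CREB3L2 and -0.43 for HSP90B1. With 1 array per group, signs on so few arrays are a description.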

How the results depend on the processing

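With the fit across both lines, the replicate block was the cell line. Without the replicate block none of the 35 genes passed for the vector or for miR-1 against miR-null, and their medians were -0.03 and -0.13, as with it. With a trended prior variance 1 gene (UGGT1) passed as lower for the vector. For KHOS against U-2OS the median of the 35 was 0.12 after quantile normalization and 0.65 without x_at and s_at probe sets, and the genes lower numbered 7 with every probe set tested and 2 without x_at and s_at sets. For the line difference in the vector change, 0 genes passed after quantile normalization, with no level filter, with every probe set tested and with the median over probe sets, and 2 passed (XBP1 and CREB3L2) with the 75th percentile filter and with the trended variance. The median of that difference was 0.13 after quantile normalization. By a 1.5-fold rule the KHOS vector arrays had 2 genes higher (against 5.65% of all genes) and 0 lower (1.5%) and the U-2OS arrays 0 higher (2.91%) and 2 lower (10.5%). After quantile normalization U-2OS had 5 higher (20.8% of all genes) and 5 lower (17.6%) by the 1.2-fold rule, and with the median over probe sets 1 higher (11.8%) and 11 lower (23.7%). These counts are near or below the shares of all genes, except the 11 lower, which are 31.4% of the 35.

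Leaving out 1 array at a time gave 0 to 2 genes higher and 0 to 2 lower for the vector, with medians of -0.16 to 0.13. It gave 0 calls for miR-1 against miR-null, with medians of -0.29 to -0.04. For KHOS against U-2OS it gave 10 to 20 higher and 3 to 4 lower, with medians of 0.35 to 0.45. For the line difference it gave 0 to 2 higher and medians of 0.24 to 0.42, and it could not be fitted without a control array. Over all genes the vector calls ranged over 0 to 1931, the calls between the lines over 4471 to 8765 and those of the line difference over 6 to 1531.

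Single genes changed sign as follows, and the cause was not tested. The median over probe sets also takes in sets below the filter, as for XBP1 (other set at 4.29), SEC61B (4.36) and HERPUD1 (4.98). For the vector, the median over probe sets gave ATF6 -0.23, CREB3L2 0.13, DNAJC10 0.09 and DNAJC3 0.18, and CREB3L2 was 0.13 without x_at and s_at sets. Without a control array this contrast rests on 1 line, and over the arrays left out in turn ATF6 ranged over -0.05 to 0.38, XBP1 over -0.09 to 1.06, CREB3L2 over -1.13 to 0.24, DNAJC10 over -0.61 to 0.11, EDEM1 over -0.51 to 0.01 and HYOU1 over -0.59 to 0.13. For miR-1 against miR-null, the median over probe sets gave DERL3 -0.06, HERPUD1 -0.02, WFS1 -0.10 and XBP1 0.03, and XBP1 was 0.20 when miR-1 was set against miR-null and control together. Over the arrays left out XBP1 ranged over -0.36 to 0.23, ERN1 over -0.06 to 1.31, HERPUD1 over -0.06 to 0.08, ERO1B over -0.03 to 0.42, WFS1 over -0.07 to 0.20, ATF6 over -0.28 to 0.00, CREB3L2 over -0.73 to 0.19 and DERL3 over -0.30 to 0.49. Between the lines, the median over probe sets gave ATF6 1.76, DNAJC10 -0.76, ERN1 0.19, ERO1A 0.86 and SEC61B 0.02, ERO1A was 0.86 without x_at and s_at sets, and XBP1 ranged over -0.29 to 0.29 over the arrays left out. For the line difference CREB3L2 was -0.03 and ERO1A 0.07 both with the median over probe sets and without x_at and s_at sets, and SEC61B was 0.33 with the median over probe sets. Over the arrays left out WFS1 ranged over -0.13 to 0.11 and SEC61B over -0.08 to 0.00.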
